A study of Homo sapiens with 6 samples.

Results

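The cells described here were C4-2B-ENZR, a prostate cancer cell line selected for resistance to enzalutamide, transfected with a negative-control siRNA. C4-2B is a derivative of LNCaP with bone-metastatic behaviour, and enzalutamide is a drug that blocks androgen signalling. The series holds 6 RNA-seq samples, and the 3 samples with the negative-control siRNA were taken by their label, with all 57820 genes of each file. The other samples of the series carried an siRNA against RUVBL1 and were not used here. The labels give a fetal bovine serum medium without naming enzalutamide in it, a single cell line, and nothing on whether each replicate came from its own culture. The spread given below is that between these 3 samples and may be technical.

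Luminal cells line the prostate gland, secrete its fluid and depend on androgens, the hormones testosterone and dihydrotestosterone, which switch on genes such as the kallikrein KLK3, the prostate-specific antigen. HOXB13 and FOXA1 are transcription factors that shape the androgen response on chromatin, and TMPRSS2 is an androgen-driven surface protease. Resistance to drugs of this kind has been tied in prostate cancer to androgen made within the tumour, to the glucocorticoid receptor standing in, to drug efflux and to a change towards a neuroendocrine cell type.

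The estimated counts summed to 24720504, 36054489 and 30011235 in replicates 1, 2 and 3. Levels are given as CPM, the count divided by that total and scaled to 1000000, and between genes as TPM, which divides by the gene's length before scaling. A count of 3 is 0.121, 0.0832 and 0.0999 CPM in the 3 libraries. Over genes with at least 100 counts in both libraries of a pair, the mean chi-square per gene, which is about 1 where 2 libraries differ by counting error alone, was 1.64 between replicates 2 and 3, 3.32 between 1 and 2 and 3.30 between 1 and 3. By this mean, replicates 2 and 3 differed by more than counting error, though by less than either did from replicate 1. A few genes can raise a mean of this kind, so it does not describe the typical gene. Replicate 1 stood apart: 442 genes listed at 0 there had at least 1 CPM in both others, and 295 of these were long intergenic RNAs. Long intergenic RNAs are therefore described from replicates 2 and 3.

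The plot of levels in replicate 1 against the mean of the others shows that group along the lower edge. Long intergenic RNAs took 0.0276% of the counts in replicate 1, 1.02% in replicate 2 and 1.03% in replicate 3, while mitochondrial genes took 13.8%, 13.5% and 13.5%. Among the 442 genes were 12 protein-coding genes, such as SMIM26, listed at 0, 52.9 and 50.7 CPM, and MTLN, listed at 0, 38.0 and 37.5 CPM, both genes of small proteins. LINC00963 was not at 0 in replicate 1 but followed the same pattern, with 0.243, 122 and 123 CPM. What made replicate 1 differ was not tested.

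**Figure D1:**
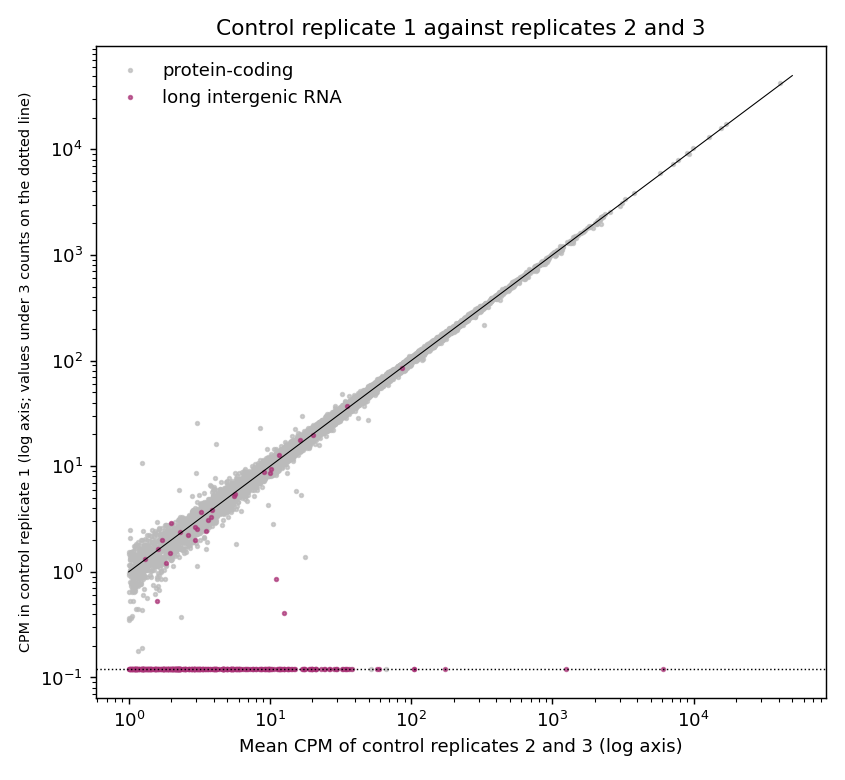
Level of protein-coding genes (grey) and long intergenic RNAs (purple) in replicate 1 (vertical axis, CPM, log scale) against the mean of replicates 2 and 3 (horizontal axis, CPM, log scale), with the line of equal levels. Genes under 3 counts in replicate 1 lie on the dotted line, among them MALAT1 and NEAT1, while nearly all protein-coding genes follow the line of equal levels.

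Of the 57820 genes, 13043 (22.6%) had at least 1 CPM in every library and 31385 (54.3%) were at 0 in all 3. Among the 19263 protein-coding genes these were 11551 (60.0%) and 3511 (18.2%), with a median of 7.77 CPM. At least 100 CPM was reached by 1855 genes and at least 1000 CPM by 89. A few genes held much of the counts: the 10 most counted took 13.9%, 13.5% and 13.5% (13.6% ± 0.198, SD, n = 3), and 673, 666 and 664 genes made up the first 50%.

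Mitochondrial genes led the ranking by counts, which mixes a gene's length with its level. MT-CO1, a subunit of cytochrome c oxidase, had 42158, 40733 and 40483 CPM. EEF1A1, which brings aminoacyl-tRNAs to the ribosome, was the most counted nuclear protein-coding gene at 7854 ± 106 CPM (SD, n = 3). EEF2, GAPDH and HSP90AA1, the last a chaperone of steroid receptors and kinases, followed at 3828 ± 32.9, 3309 ± 97.1 and 3101 ± 15.7 CPM. Ribosomal protein genes together took 8.11% ± 0.0999 (SD, n = 3) of the counts. The plot of level by rank shows the 3 libraries lying on each other, apart from the place that MALAT1 takes in replicates 2 and 3 and from the low end, where replicate 1 falls below the others over the last few CPM.

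**Figure D2:**
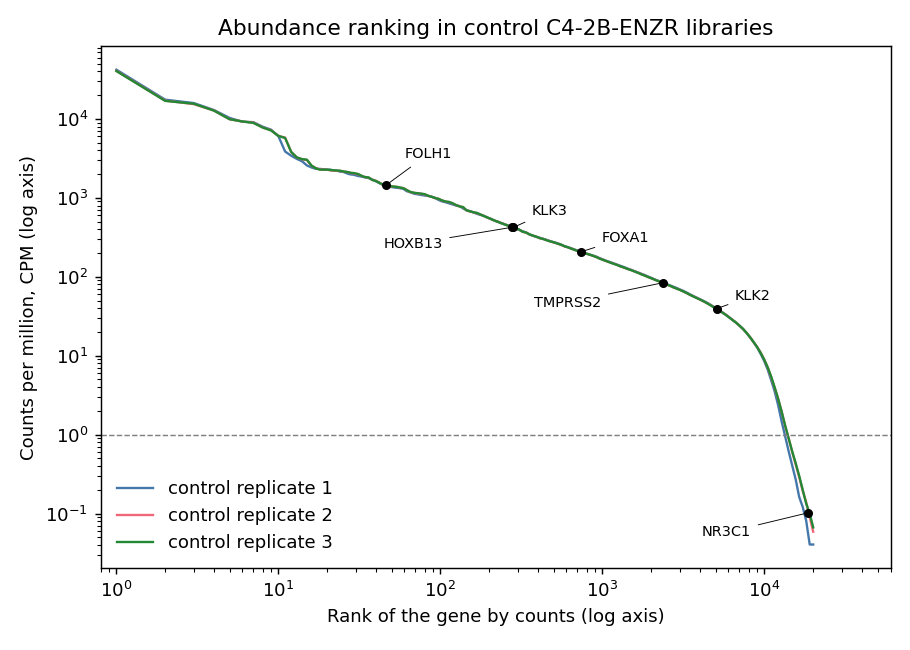
Level (vertical axis, CPM, log scale) of the genes of each library in descending order (horizontal axis, rank, log scale), 1 line per library, with named genes marked as points and a dashed line at 1 CPM. The 3 lines overlap over most ranks of high and middle level and part at the low end, with MT-CO1 first in each at a mean of 41125 CPM.

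Several membrane and metabolic genes stood among the 60 most counted genes of these cells; MME, EPHX1, CKB and CHPT1 were picked for mention after their values were seen. MME, the surface peptidase neprilysin, had 1853, 1809 and 1825 CPM (rank 36). FOLH1, the prostate-specific membrane antigen used as a target in imaging and therapy, had 1457, 1435 and 1433 CPM (rank 46), and a near-identical copy in the genome can share its reads. EPHX1, an epoxide hydrolase, stood at 1650 ± 16.1 CPM, CKB, the brain-type creatine kinase, at 1430 ± 12.5 CPM, and CHPT1, an enzyme of phosphatidylcholine synthesis, at 1383 ± 2.35 CPM. FASN, the fatty acid synthase, had 1296 ± 34.0 CPM.

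The 5 luminal markers were KLK3 (ENSG00000142515.10), KLK2 (ENSG00000167751.8), HOXB13 (ENSG00000159184.7), FOXA1 (ENSG00000129514.4) and TMPRSS2 (ENSG00000184012.7). All 5 had at least 1 CPM in every library, as did 60.0% of all protein-coding genes. Their levels fitted the label, but reaching 1 CPM is no check of identity. KLK3 had 430, 415 and 420 CPM, HOXB13 441, 415 and 416 CPM, and FOXA1 205, 206 and 209 CPM. TMPRSS2 had 86.4, 85.4 and 80.1 CPM and KLK2, a kallikrein close to KLK3, 41.3, 38.6 and 38.4 CPM. None of the 5 had a library far from the others.

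Of 24 luminal genes measured, 21 had at least 1 CPM in every library, against 60.0% of all protein-coding genes, and their median was 123 CPM. FOLH1 was the highest of them per length under each of the 3 length definitions tried. STEAP2 and STEAP1, related proteins of the prostate cell surface, stood at 1045 ± 13.3 and 411 ± 1.20 CPM, and CDH1, the epithelial cadherin, at 782 ± 12.2 CPM. AMACR, a peroxisomal racemase used as a tumour stain, had 160 ± 6.22 CPM, the epithelial transcription factor SPDEF 53.2 ± 1.16 CPM, and ACP3, the prostatic acid phosphatase, 15.4 ± 0.172 CPM. SLC45A3, known as prostein, was low at 3.96, 4.88 and 3.9985 CPM. The 3 luminal genes below 1 CPM were TRPM8, a cold-sensing channel with counts of 1, 1 and 3, PCA3, a prostate cancer noncoding RNA with counts of 0, 2 and 2, and NPY, the neuropeptide, with no count.

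KLK3 and KLK2 lie side by side on chromosome 19, and the sequences at their starts are shown because the pair share a long stretch although their levels lay far apart. Both are RefSeq sequences of GRCh38.p14 on the plus strand, KLK3 at chr19:50854665-50854964 and KLK2 at chr19:50873189-50873488, with 250 bases before and 50 after the start, in the direction of transcription. Capitals mark the longest run the pair share exactly, 80 bases long.
KLK3: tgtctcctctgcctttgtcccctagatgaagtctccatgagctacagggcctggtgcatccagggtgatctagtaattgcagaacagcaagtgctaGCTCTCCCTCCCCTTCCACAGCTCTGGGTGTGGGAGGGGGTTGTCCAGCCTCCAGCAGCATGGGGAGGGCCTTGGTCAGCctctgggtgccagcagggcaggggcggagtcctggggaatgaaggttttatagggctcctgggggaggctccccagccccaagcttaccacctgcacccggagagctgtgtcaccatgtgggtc
KLK2: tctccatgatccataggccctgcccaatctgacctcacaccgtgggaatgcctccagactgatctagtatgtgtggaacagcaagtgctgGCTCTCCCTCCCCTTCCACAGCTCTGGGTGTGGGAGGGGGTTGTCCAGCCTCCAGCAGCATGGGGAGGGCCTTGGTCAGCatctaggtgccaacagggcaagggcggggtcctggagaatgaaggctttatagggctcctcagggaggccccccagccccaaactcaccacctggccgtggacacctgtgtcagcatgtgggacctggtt
The shared run lay from 154 to 75 bases before the start in KLK3 and from 160 to 81 in KLK2. A shared run is a description of these letters only.

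Per length, KLK3 stood at 356 ± 8.60 TPM (SD, n = 3), KLK4 at 133 ± 2.13, KLK2 at 40.5 ± 1.94 and KLK15 at 3.44 ± 0.649, with no overlap between neighbours. That order was the same with the longest transcript or the total exon length, which gave KLK3 320 and 235 TPM and KLK2 26.8 and 15.97 TPM. Of the other 11 kallikreins, KLK1 had counts of 4, 5 and 7, KLK14 5, 5 and 2, and the 9 from KLK5 to KLK13 none, although kallikreins lie in 1 cluster on the chromosome. These similar genes can share reads, and how shared reads were counted is not given in the sources used here.

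Of 47 nuclear receptors measured, 27 had at least 1 CPM in every library, a share near the 60.0% of all protein-coding genes. Another 12 were counted below that level and 8 were at 0. That 60.0% is the share to set beside the member counts of the other lists of protein-coding genes below. ESRRA, an orphan receptor that drives mitochondrial genes, had 82.9, 84.4 and 84.3 CPM. Of the receptors reported here it was the highest per length at 103 ± 0.422 TPM (SD, n = 3), and it kept that place under the other lengths, at 75.2 and 71.6 TPM. Within the family 11 of the 26 pairs of neighbours overlapped between libraries, and many places changed with the length used.

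**Figure D3:**
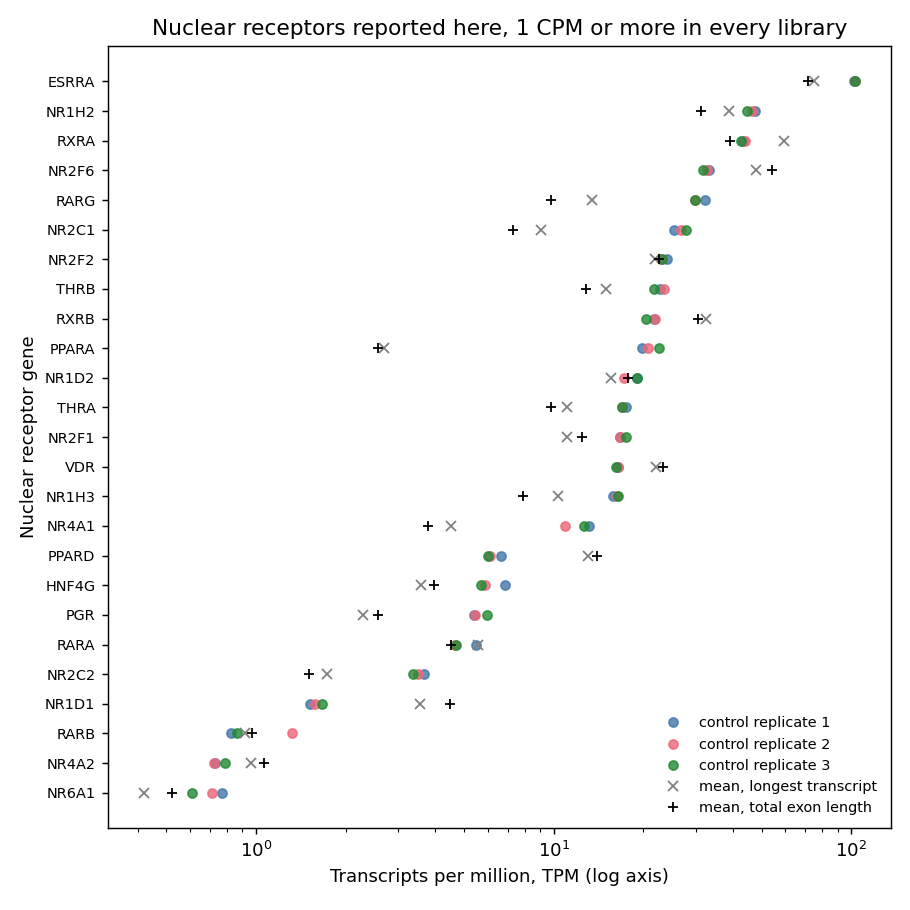
Level per length (TPM, log scale) of the nuclear receptors reported here with at least 1 CPM in every library, 1 point per library, with crosses and plus signs for the means under the longest transcript and the total exon length. ESRRA lies highest of those plotted, at a mean of 103 TPM.

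Levels of several steroid receptors were near 0. The glucocorticoid receptor, NR3C1, had counts of 1, 6 and 3, and the estrogen receptor ESR1 counts of 0, 1 and 0. The mineralocorticoid receptor, NR3C2, had counts of 6, 23 and 12, and ESR2 had 1.14, 0.619 and 0.4998 CPM. The progesterone receptor, PGR, had 14.7, 14.9 and 16.4 CPM. The vitamin D receptor, VDR, had 51.3 ± 0.379 CPM, and RXRA, the shared partner of many receptors, 167 ± 3.04 CPM. ESRRB, NR2E1, NR1H4, NR0B2, RXRG, NR5A1, NR0B1 and RORB were the 8 at 0.

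All 19 coregulators and receptor-linked factors measured had at least 1 CPM in every library. NCOA4, also in this list, had no match and was not analysed. FKBP4, a co-chaperone that helps steroid receptors mature, had 532, 521 and 518 CPM, and GATA2, a transcription factor of the androgen response, 244, 243 and 242 CPM. FKBP5, a co-chaperone that androgens induce, had 70.8 ± 0.869 CPM. The coactivators NCOA1, NCOA2 and NCOA3 had 20.2 ± 0.332, 42.6 ± 0.572 and 18.7 ± 1.40 CPM, and the corepressor NCOR1 87.3 ± 2.41 CPM.

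Of 24 genes for the synthesis and import of androgens, 9 had at least 1 CPM in every library, and the median was 0.334 CPM. SRD5A2, another gene of this list, had no match and was not analysed. The enzymes that open the pathway were near 0: CYP11A1, which cuts the cholesterol side chain, had no count, CYP17A1 counts of 0, 1 and 1, HSD3B1 0, 1 and 3, and HSD3B2 0, 1 and 0. AKR1C3, which makes testosterone from androstenedione, had counts of 7, 24 and 18, below 1 CPM in each library. Present were HSD17B4 at 352 ± 3.40 CPM, HSD17B10 at 134 ± 1.24 CPM, SRD5A3 at 77.4 ± 1.79 CPM and the steroid 5α-reductase SRD5A1 at 14.5 ± 0.139 CPM, along with the steroid sulphatase STS at 12.6 ± 1.21 CPM. HSD17B4 works mainly on fatty acids in peroxisomes, and SRD5A3 on dolichol, the lipid carrier of glycosylation. HSD17B10 acts in mitochondria and not on steroids alone. The lipoprotein receptor SCARB1, a route for cholesterol, had 79.0 ± 1.84 CPM, while the uptake carrier SLCO2B1 had counts of 1, 0 and 2.

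Of 14 genes for androgen inactivation 5 had at least 1 CPM in every library. UGT2B17 and UGT2B15 glucuronidate androgens and are near-identical copies, so their split is uncertain, and they had 10.8, 8.95 and 10.3 and 6.06, 3.59 and 4.51 CPM. UGDH, which makes the sugar donor for that step, had 28.1 ± 0.548 CPM. HSD11B2, which inactivates cortisol, had 57.3 ± 2.52 CPM, and SULT2B1, a sterol sulphotransferase, 14.8 ± 0.666 CPM.

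Drug efflux transporters are membrane pumps that can lower a drug's level in the cell. Of 13 measured, 7 had at least 1 CPM in every library, against 60.0% of all protein-coding genes. ABCC1 had 59.1, 59.7 and 59.0 CPM, ABCC5 56.3 ± 1.40 CPM and ABCC4 42.5 ± 1.51 CPM. ABCB1, the P-glycoprotein that pumps out many drugs, had counts of 3, 1 and 2, at or under the floor of 3 counts. ABCG2 had 1.62, 1.66 and 1.80 CPM. Of 14 genes in the list of splicing factors and related genes 13 were present, and the median of the list was 325 CPM. HNRNPA1 had 1164 ± 4.54 CPM and U2AF2 398 ± 4.83 CPM, and LIN28B, one of the related genes, was at 0.

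Of 24 neuroendocrine and plasticity genes 8 had at least 1 CPM in every library. The secretory granule genes CHGA and CHGB, the transcription factors INSM1, NEUROD1 and FOXA2, and MYCN were at 0 in all 3 libraries, and NCAM1 had counts of 2, 0 and 1. ENO2, a glycolytic enzyme used as a neuroendocrine stain, had 46.7, 48.4 and 49.3 CPM, and the synaptic vesicle gene SYP had 2.87, 3.49 and 3.37 CPM. DLL3, an inhibitory Notch ligand, had 8.58, 9.29 and 8.63 CPM, and ONECUT2, a transcription factor, 10.4 ± 0.268 CPM. The rest above 1 CPM included AURKA, a mitotic kinase, at 66.6 ± 1.55 CPM, the histone methyltransferase EZH2 at 57.5 ± 2.18 CPM and REST, which represses neuronal genes, at 44.1 ± 1.59 CPM, genes that dividing or non-neuronal cells also express.

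Of 32 receptor tyrosine kinases 18 had at least 1 CPM in every library, a share near the 60.0% of all protein-coding genes. DDR1, a collagen receptor, and ERBB3 were the 2 highest per length under all 3 lengths. DDR1 had 390, 372 and 370 CPM and ERBB3 299, 295 and 302 CPM. EGFR had 291, 280 and 291 CPM and ERBB2, the partner of ERBB3, 182 ± 9.02 CPM. IGF1R and MET stood at 3.74 ± 0.242 and 4.14 ± 0.145 CPM. ERBB4 had no count, AXL had counts of 4, 2 and 4 and KIT 0, 2 and 0, so members ranged from no count to 390 CPM.

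Of 23 interleukin 6, interferon and JAK-STAT genes 18 had at least 1 CPM in every library. IL6ST, the signalling chain of the interleukin 6 receptor, had 123 ± 1.37 CPM and STAT3 121 ± 5.25 CPM, while IL6 itself had no count. The kinase JAK1 had 7.12, 9.04 and 7.40 CPM, JAK2 12.3 ± 0.455 CPM and TYK2 66.7 ± 2.91 CPM. STAT6, a transcription factor for interleukin 4 signals, had counts of 2, 2 and 1. Of 32 Wnt pathway genes 24 had at least 1 CPM in every library, with CTNNB1, which codes for β-catenin, at 278 ± 1.86 CPM, the ligand WNT7B at 17.4 ± 0.467 CPM and AXIN2, a target of the pathway, at 1.66, 1.498 and 2.37 CPM.

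All 22 tumour suppressors and cell cycle inhibitors had at least 1 CPM in every library. RB1, which holds back entry into the cell cycle, had 47.2, 47.3 and 44.5 CPM, and CDKN1A, which codes for the inhibitor p21, 113 ± 3.19 CPM. MSH6, a gene of DNA mismatch repair, had 50.6, 52.8 and 50.8 CPM. A transcript count does not show whether the protein is made or works. All 14 proliferation markers were present with a median of 144 CPM, with CDK1 at 289 ± 7.50 CPM, TOP2A at 224 ± 5.38 CPM and MKI67 at 154 ± 3.84 CPM.

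Of 28 ETS transcription factors 16 had at least 1 CPM in every library, a share near the 60.0% of all protein-coding genes. EHF, an epithelial member, was the highest per length under all 3 lengths, at 147, 151 and 152 CPM. ERG, the member joined to TMPRSS2 in many prostate cancers, was at 0 in all 3 libraries, as were FLI1 and ETV3L. ETV1, the member rearranged in LNCaP cells, had counts of 2, 0 and 1, and ETV4 and ETV5 had at most 4 counts in a library. Of 39 HOX genes 17 had at least 1 CPM in every library, and HOXB13 was the highest per length under all 3 lengths, with HOXA10 (33.6 ± 0.349 CPM) and HOXC6 (29.6 ± 2.25 CPM) in the next places. The 7 HOX genes at 0 were HOXB1 and 6 of the HOXD cluster, while HOXD13 had 7.95 ± 0.578 CPM.

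Of 19 keratins, the filament proteins that mark kinds of epithelium, 5 had at least 1 CPM in every library. KRT8, a keratin of simple epithelium, had 688, 652 and 658 CPM and KRT18, its filament partner, 549, 521 and 528 CPM. KRT19, often found with them, had 1.33, 1.03 and 1.23 CPM, and the basal keratins KRT5 and KRT14 had no count. Of 13 basal epithelial markers 2 had at least 1 CPM in every library, CDH3 at 43.3 ± 0.504 CPM and DST at 26.7 ± 0.858 CPM, and the defining basal factor TP63 had counts of 0, 0 and 1. VIM, the mesenchymal filament gene, had 1.46, 0.832 and 1.73 CPM, the neuronal cadherin CDH2 no count, CD44 counts of 1, 1 and 2, and GSTP1, a detoxifying enzyme commonly silenced in prostate cancer, counts of 0, 2 and 1; these 4 were picked after their values were seen.

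Of 22 surface proteins used as therapy targets 13 had at least 1 CPM in every library, a share near the 60.0% of all protein-coding genes. FOLH1 was the highest of them per length under all 3 lengths. CD46, a complement regulator, had 315 ± 4.40 CPM and CD276, a relative of the checkpoint ligands, 103 ± 2.81 CPM. PSCA, the prostate stem cell antigen, had 6.51, 7.31 and 7.66 CPM. FAP, GRPR, CEACAM5, CDH6 and F3 were at 0, and TMEFF2 had counts of 0, 1 and 1.

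Of 19 cancer-testis genes, which are normally restricted to germ cells, 6 had at least 1 CPM in every library. PRAME had 200, 192 and 199 CPM, MAGEA1 118, 114 and 116 CPM and MAGEA10 68.5 ± 1.88 CPM. MAGEA3 and MAGEA6, near-identical copies whose split is uncertain, had 171 ± 1.63 and 97.3 ± 2.35 CPM, and MAGEA12 61.0 ± 0.988 CPM. MAGEA4 had counts of 5, 0 and 2, and MAGEC1 and MAGEC2 had none, so the family held both high members and members without a count.

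Markers of other cell types were mostly near 0, and each count below is over all measured members of its list. In bulk RNA, few cells of a type and little RNA per cell cannot be told apart. Of 17 leukocyte markers 1 had at least 1 CPM in every library, CD68 at 11.7 ± 0.562 CPM, a lysosomal gene that epithelial cells can also express, and CD3E had no count. Of 8 endothelial markers it was VWF alone at 1.46, 1.36 and 1.19 CPM, with counts of 0, 1 and 0 for CDH5. Of 16 fibroblast and smooth muscle markers there were 4, ACTA2 at 10.0 ± 0.965, TAGLN at 9.15 ± 0.558, COL1A1 at 8.68 ± 0.478 and PDGFRB at 3.05 ± 0.0865 CPM, while COL1A2, DCN, LUM and DES were at 0. The 3 libraries lay close together in these sums, the 16 fibroblast and smooth muscle markers adding up to 30.0, 32.4 and 32.5 CPM.

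Liver, nerve, blood, bone and germ line markers followed the same pattern. Of 10 hepatocyte markers 1 had at least 1 CPM in every library, APOA1 at 1.17 ± 0.0688 CPM, and ALB had no count. Of 12 neuron and glia markers there were 3, MBP at 49.3 ± 2.40 CPM, whose locus also makes Golli transcripts outside the nervous system, GRIN1 at 8.25 ± 0.422 CPM and GAD1 at 1.26 ± 0.209 CPM, while SNAP25 and STMN2 had no count. Among the 7 erythroid markers EPOR stood at 21.7 ± 1.04 CPM with HBB at 0. Of 12 bone-forming markers, only COL1A1 and RUNX2 (1.57 ± 0.134 CPM) reached 1 CPM in every library, and SPP1, IBSP and ALPL were at 0. Of 12 germ cell and pluripotency markers ZP3, SYCP3 and POU5F1 did so, at 28.3 ± 0.947, 7.52 ± 0.872 and 1.95 ± 0.140 CPM, and POU5F1 has pseudogene copies that can share reads.

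The remaining lists were as low: 1 of 12 club and urothelial markers (UPK3A, 4.60 ± 0.209 CPM), 2 of 7 melanocyte markers (MITF and PMEL), 1 of 10 lung and intestine markers (VIL1, 7.13, 4.17 and 4.80 CPM), 2 of 8 striated muscle markers (TTN and TNNT2) and 0 of 8 seminal vesicle and kidney markers had at least 1 CPM in every library. Over all 34 lists, 13 had a median of at least 1 CPM. The plot of level classes sets the lists side by side, and the coregulators, tumour suppressors and proliferation markers are its full bars.

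**Figure D4:**
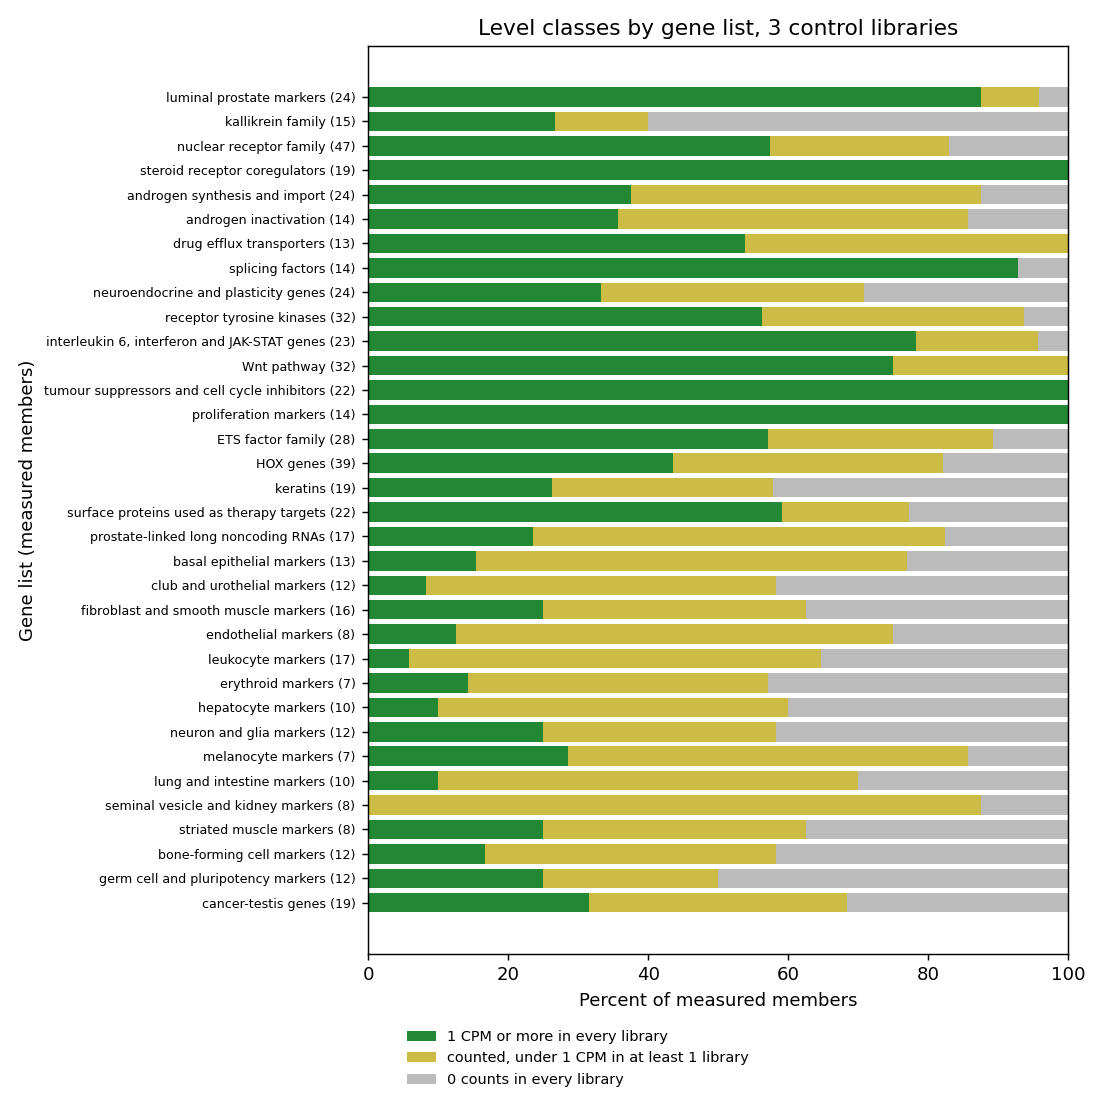
Share of the measured members of each list (horizontal axis, percent) with at least 1 CPM in every library, counted below that, or at 0 in all 3 libraries. Proliferation markers, tumour suppressors and coregulators lie wholly in the first class, and seminal vesicle and kidney markers have no member there.

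Long intergenic RNAs, transcribed apart from protein-coding genes, are given from replicates 2 and 3. Of 6576 such genes 324 had at least 1 CPM in both, 64 at least 10 and 5 at least 100, and 4729 were at 0. In replicate 1, 295 of the 324 (91.0%) were listed at 0 and 29 were not. MALAT1, a nuclear RNA of splicing speckles, had 6109 and 6101 CPM and held 59.7% and 59.5% of all counts of the class. With NEAT1, the scaffold of nuclear paraspeckles, at 1257 and 1256 CPM, the share was 72.0% and 71.7%.

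NORAD, which binds Pumilio proteins, had 171 and 174 CPM, and the small nucleolar RNA hosts SNHG8 and SNHG19 had 106 and 103 and 104 and 103 CPM. FLJ20021 had 87.7 and 83.7 CPM and was among the few also counted in replicate 1, at 85.7 CPM. LINC02593 had 59.3 and 59.4 CPM and LINC00667 38.5 and 37.4 CPM. Each of these 6 RNAs differed little between replicates 2 and 3, and all but FLJ20021 were listed at 0 in replicate 1.

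Of 17 long noncoding RNAs linked to prostate cancer, 9 had at least 1 CPM in replicates 2 and 3, and 4 in all 3 libraries. Of all long intergenic RNAs, 4.93% did so in replicates 2 and 3 and 0.395% in all 3 libraries. The same shares of all antisense genes were 10.2% and 9.59%. PCAT1 was listed at 0, 1.58 and 1.50 CPM and PVT1 at 0.849, 10.9 and 11.1 CPM. GAS5 and SNHG1, hosts of small nucleolar RNAs, were counted in every library, at 151, 165 and 168 CPM and at 79.4, 87.9 and 89.2 CPM. PCGEM1 had no count in any library, and HOTAIR counts of 1 and 0 in replicates 2 and 3. ARLNC1, an RNA of androgen-responsive prostate cancer, had counts of 4 and 1 there, and DRAIC 7 and 9.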

How the data were processed

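RNA-seq of 3 negative-control siRNA samples was described, and no groups were compared, so no test was made. The values deposited by the authors are estimated counts per gene, not scaled, in 1 file per sample. Over all genes, with those at 0 included, 90.2%, 87.8% and 88.2% of the values were whole numbers. The submitters' processing notes name Bowtie 0.12.2 and the mouse builds mm8 and mm9, while the gene identifiers are human. No source used here names the counting tool, human build, annotation, strand setting or filters. No coordinates of the files were used, and overlapping or antisense genes may not be told apart.

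CPM was the count over the library total. TPM used the median transcript length of GENCODE release 29, matched by gene identifier, with the longest transcript and total exon length as alternatives, and orders between genes are given where all 3 lengths agreed. Symbols were found for 51996 genes and types with lengths for 52338. Of 590 listed genes 578 were matched, and the other 12 were not analysed here. Named genes were the 5 markers, the most counted genes, the highest and defining members of each of 34 lists, members at 0, and whole receptor, kallikrein, ETS and HOX families; genes outside the rule are marked where named, and some genes the rule takes are not reported here. The members and lists were chosen with earlier results of these data known. Level arithmetic was tested on simulated data. Tools were Python 3.11.15, pandas 2.3.3 and, for TMM scaling, R 4.3.3 with edgeR 4.0.16.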

Additional observations from a re-analysis of the deposited data

How the results depend on the processing

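Counts of genes moved little with the scale: 13043 genes had at least 1 CPM in every library, 13058 with TMM scaling, 13063 without the genes listed at 0 only in replicate 1 in the totals and 13235 without mitochondrial genes in the totals. Leaving out each library in turn gave 13126 to 13643 genes, 13.5% to 13.7% for the share of the 10 most counted genes, 12 to 13 lists with a median of at least 1 CPM, and 348 to 351 long intergenic RNAs. The counts of genes and of long intergenic RNAs need the threshold in every library used, so leaving 1 out can only keep or raise them. The threshold mattered more: 16254 genes passed at 0.1 CPM and 9433 at 10 CPM, 862 and 64 long intergenic RNAs did, and 5 lists had a median of at least 10 CPM. With mitochondrial genes left out, the 10 most counted genes held 4.11%. No paired analysis was possible because 1 group was described and no test was made. None of the 361 named genes with a mean of at least 1 CPM moved by over 1.5 times under these scales or without any 1 library. A mean of 3 libraries cannot rise by more than that when 1 is left out, so this limit is no check on rises. The means of long intergenic RNAs listed at 0 in replicate 1 rose by that factor without it. With TMM scaling 361 of the 361 means stayed within 1 SD of the 3 libraries. Without the genes at 0 in replicate 1 in the totals 330 did, and without mitochondrial genes 33 did. With 3 libraries of 1 line, the spread says nothing about other clones or cultures. The floor of 3 counts was a set value and no detection limit was estimated, so counts under it do not show that a gene is silent.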
